A study of Saccharomyces cerevisiae with 2 samples.

Results

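The 4 genes described here, ARN1, ARN2, SIT1 and ENB1, encode the siderophore transporters of budding yeast, and the measurement is the break signal of their DNA and of the 5 kb either side. They were chosen by name and position from 5788 nuclear genes with at least 1 array probe, with earlier results of these data already known. Their reading frames held 27 of the 41480 probes, and the frames with their flanks held 152. DNA double strand breaks were mapped by Break-chip, in which DNA ends are labelled with a fluorescent nucleotide in agarose and hybridised to a 2-colour tiling array. All samples, the G1 reference DNA included, came from strain WFA73 of genotype mec1, which affects the checkpoint kinase that guards stalled replication forks. Cells held in G1 by alpha factor were released for 1 h into 200 mM hydroxyurea, an inhibitor of ribonucleotide reductase. After filtration they had 1 h of recovery in new medium, to which the iron chelator BPS was added at 0.8 micromolar or not at all. The study asked whether the chelator altered where breaks lie.

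Siderophores are small molecules with a very high affinity for ferric iron. Yeast does not make them but takes up the iron-loaded siderophores of other microbes through the ARN/SIT transporters, a family of the major facilitator superfamily. The transcription factor Aft1 activates their genes when iron is scarce, together with the genes of the reductive uptake system. ARN1 is known for the uptake of ferrichromes, ARN2 (also TAF1) for triacetylfusarinine C, SIT1 (also ARN3) for ferrioxamine B and ENB1 (also ARN4) for enterobactin. The arrays measured broken DNA at these genes, not their transcripts.

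Each recovery was measured on 1 array. Differences between the recoveries therefore have no check against replicates, and none was tested. An array gave a ratio of recovery DNA to G1 DNA per probe. It was converted to log2 and set to a median of 0 over all probes, so a value states how the signal of a place compares with the bulk of that genome. The median ratios were 1.21 without and 1.23 with BPS, and the probes spread more widely with BPS (SD 0.86 against 0.72 on the log2 scale). The standard error (SE) given with a mean is over its probes and covers scatter within the arrays only. The columns are named for the recoveries and give no numerator, so the direction of the ratio was assumed to be recovery over G1. If it ran the other way, every sign below would turn. The G1 DNA was hybridised afresh on each array, so a value can also come from the G1 side, and copies of DNA made by replication are not separated from broken ends. Positions are the kb coordinates that the authors deposited, and their genome build is not given in the sources used here. Reading frames were placed by the RefSeq table of assembly R64. For ARN2, SIT1 and ENB1 this gave the same probes as the positions listed when the genes were chosen, but the position listed for ARN1 fell on 9 probes beside its frame, which are reported separately.

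The genes lie on the left arms of 3 chromosomes, ARN2 and ARN1 on VIII with 8.88 kb between them, SIT1 on V and ENB1 on XV. ARN1 (YHL040C), ARN2 (YHL047C) and ENB1 (YOL158C) are read towards the chromosome end, and SIT1 (YEL065W) is read towards the centromere. All lie within 30 kb of an end. In that zone ARN1, ARN2 and SIT1 were below the genome median without BPS, while ENB1 was above it. With BPS the signal was higher at ARN2, by 3.17-fold, and at ENB1, by 1.49-fold. At ARN1 and SIT1 the differences were smaller, and their signal stayed below the genome median.

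ARN2 had the largest difference of the 4. From the chromosome end inwards its 7 probes (8.51 to 10.11 kb) had ratios of 0.900, 0.867, 0.790, 0.908, 0.936, 0.963 and 0.853 without BPS. The same probes had 2.52, 3.01, 2.40, 3.22, 3.22, 2.41 and 3.27 with BPS. All 7 lay under the array median in the absence of BPS and over it in its presence, and the values of the arrays did not overlap. The mean was −0.45 ± 0.04 (SE, 7 probes) without and 1.21 ± 0.08 with BPS, a difference of 1.66 ± 0.08 on the log2 scale. Single probes of the frame differed by 1.31 to 1.92, and all 7 passed 1 log2 unit, as did 4.22% of all probes in this direction. Near chromosome ends that share was larger, 12.9% in the outermost 10 kb, where most of ARN2 lies, and 5.66% at 10 to 30 kb. Of the 4340 genes with 3 or more probes, 16 had a larger difference.

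ENB1 was in a region of high signal on both arrays. Its 6 probes (19.66 to 20.97 kb) had ratios of 1.76, 1.96, 1.59, 1.83, 2.04 and 1.80 without BPS. With BPS they had 2.85, 3.27, 2.52, 2.26, 4.42 and 1.86. All 6 were higher with BPS, but by very unequal amounts, from 0.03 to 1.09 log2 units. The mean was 0.59 ± 0.05 without and 1.17 ± 0.18 with BPS, a difference of 0.58 ± 0.15. Without BPS 76.8% of the 4340 genes had a lower signal than ENB1, and with BPS 91.4% had.

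ARN1 had a low signal without BPS, a mean below the array median with BPS and an uneven difference. From the chromosome end inwards its 6 probes (19.24 to 20.74 kb) had ratios of 0.877, 0.720, 0.867, 0.481, 0.423 and 0.689 without BPS. With BPS they had 1.21, 1.24, 1.53, 1.05, 0.253 and 0.775. The first 4 probes and the last were higher with BPS, and the probe at 20.40 kb was lower. The mean was −0.89 ± 0.18 without and −0.48 ± 0.38 with BPS, a difference of 0.42 ± 0.27. The probe at 20.40 kb was among the lowest 0.911% of all probes without and the lowest 0.371% with BPS, and without it the difference was 0.65 ± 0.16. The 9 probes beside the frame, at 21.04 to 22.83 kb, where ARN1 had been listed, differed by −0.24 ± 0.20.

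SIT1 had a low signal on both arrays, slightly lower with BPS. Its 8 probes (27.87 to 29.34 kb) had ratios of 0.714, 1.18, 0.637, 0.841, 0.584, 0.903, 0.893 and 0.801 without BPS. With BPS they had 0.764, 0.747, 0.737, 0.680, 0.511, 0.887, 0.760 and 0.543. The ranges overlapped, with 6 probes lower and 2 higher with BPS. The mean was −0.60 ± 0.11 without and −0.82 ± 0.09 with BPS, so the difference was −0.23 ± 0.11 and ran against those of the other 3 genes. It was −0.16 ± 0.11 when the arrays were scaled to equal spread and −0.13 ± 0.11 after quantile normalization.

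**Figure D1:**
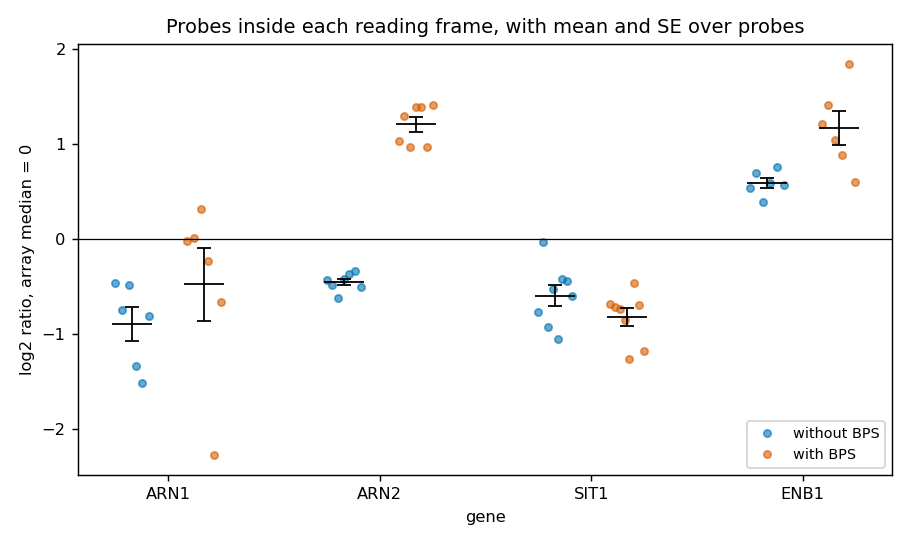
Log2 ratio (array median set to 0) of each probe inside the 4 reading frames, without BPS (blue) and with BPS (orange), with the mean and its SE over probes as black bars. The 7 probes of ARN2 lie below 0 without BPS and at 0.97 or higher with BPS, while the 8 probes of SIT1 overlap between the arrays.

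By means, the order of the 4 genes differed between the arrays, through gaps with BPS that were smaller than their SE. Without BPS it ran from ENB1 (0.59) through ARN2 (−0.45) and SIT1 (−0.60) to ARN1 (−0.89). Only ENB1 stood apart from its neighbour in that order, by 1.04 ± 0.06 from ARN2. ARN2 and SIT1 differed by 0.14 ± 0.12, and ARN1 minus SIT1 was −0.30 ± 0.21, and in both pairs the probe values overlapped. With BPS ARN2 (1.21) and ENB1 (1.17) differed by 0.04 ± 0.19. ARN1 (−0.48) and SIT1 (−0.82) followed, 0.35 ± 0.40 apart, and no probe of either reached the range of ARN2 or ENB1.

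With a threshold of 0.5 log2 units (1.41-fold) on the mean of a gene, ARN2 and ENB1 were higher with BPS and no gene of the 4 was lower. The median difference of the 4 was 0.50, against −0.03 over all 4340 genes with 3 or more probes. In all, 9.61% of those genes passed the threshold upwards and 6.77% downwards. Among the 186 genes within 30 kb of a chromosome end the shares were 19.9% and 2.69%, with a median difference of 0.14. ARN2 had the largest difference of these 186, ahead of the maltose permease gene MAL31 on II (1.35 ± 0.13, 6 probes). ENB1 was below 28 of the 186 by difference and ARN1 below 46, and 28 were below SIT1. ENB1 sits close to the threshold: it had 0.46 after quantile normalization and 0.44 when positions were moved 0.5 kb towards the centromere. ARN1 passed it with the median over probes (0.60) or after quantile normalization (0.57).

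**Figure D2:**
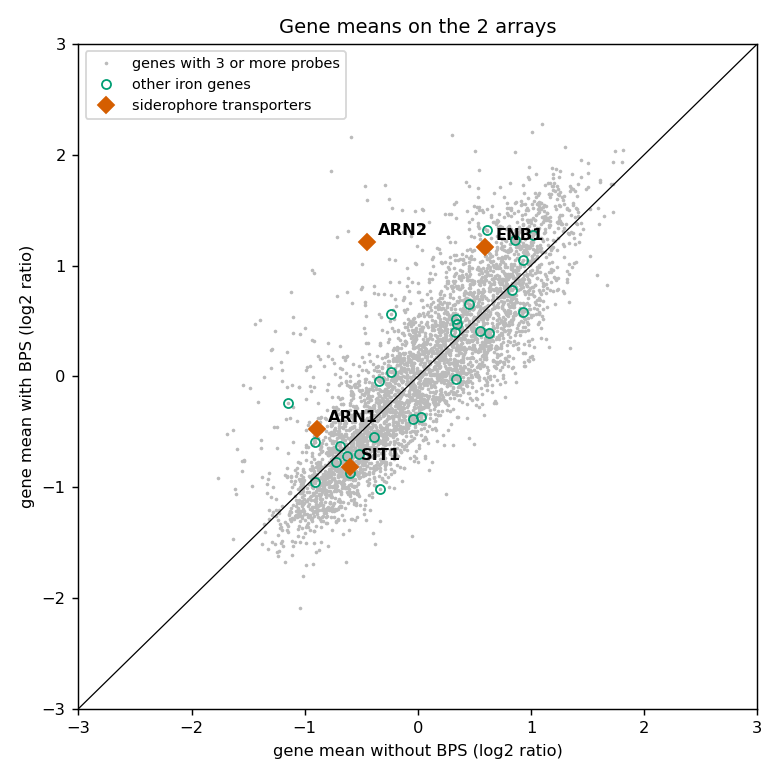
Mean log2 ratio of each of 4340 genes with 3 or more probes, without BPS (horizontal) and with BPS (vertical), in grey, with 28 other iron genes as green circles and the 4 siderophore transporter genes as orange diamonds. The line marks equal values, and ARN2 (−0.45 and 1.21) lies far above it.

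Signal differed with distance from the chromosome end, so each gene was set against the other ends of the 16 chromosomes at the same distance from the end, wherever 3 or more probes lay there. At the distance of ARN2 there were 18 such places. Their differences ran from −1.28 at the left end of I, in SEO1, to 1.10 at the left end of V, with a median of 0.55, and 17 of the 18 were above 0. ARN2 exceeded all 18, by 1.11 over their median. Without BPS ARN2 was in the middle of them, with 11 higher and 7 lower (median −0.39). With BPS only the right end of II was higher, at the maltose genes MAL31 and MAL33 (1.29), against a median of 0.04. The direction of the ARN2 difference was therefore shared by most ends at that distance, and its size was above theirs. The left end of XI at this distance is the ferric reductase gene FRE2, which differed by 0.86 ± 0.06 over the 8 probes there.

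At the distance of ENB1 the 26 other ends had a median difference of 0.14 and a range of −0.49 to 0.74. The difference at ENB1 (0.58) was smaller than at 3 of them and larger than at 23. These 3 were the left ends of VI at AQY3 (0.74), XI (0.71) and IV at YDL241W (0.59). The level of ENB1 was also high for its distance, with 6 ends higher without BPS and 3 with BPS.

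ARN1 and SIT1 stood out from other ends by their low mean level on the arrays and not by their difference. Without BPS the ARN1 frame was lower than all 27 other ends at its distance, whose values ran from −0.49 to 1.20 with a median of 0.27. With BPS 26 of the 27 were higher, with a median of 0.53. That rank leaned on the low probe at 20.40 kb (−2.28 with BPS). The ARN1 mean with BPS was −0.48 ± 0.38, but the median over its probes was −0.13, and 2 of the 6 lay above the array median. The ARN1 difference of 0.42 lay within their range of −0.28 to 1.01, with 7 ends higher, among them the left end of XV, which at this distance is ENB1. SIT1 was lower than 27 of 29 other ends without BPS (median 0.44) and lower than 28 with BPS (median 0.52). Its difference lay near the lower quartile of these ends, with 9 lower and 20 higher around a median of −0.05.

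**Figure D3:**
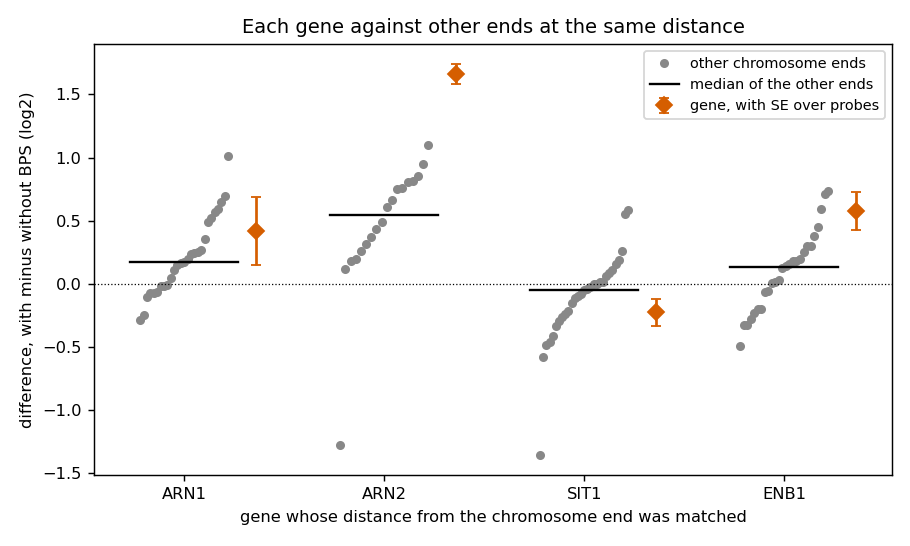
Difference with minus without BPS (log2) at each gene (orange, with SE over probes) and at the other chromosome ends at the same distance (grey, with their median as a line). ARN2 (1.66) lies above all 18 other ends, while ARN1, SIT1 and ENB1 lie within the range of theirs.

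The flanks showed how far each pattern extended. Around ARN2 the difference was broad and leaned towards the centromere. The 18 probes of the 5 kb on that side were all higher with BPS, with means of −0.46 ± 0.06 without and 0.55 ± 0.08 with BPS, a difference of 1.01 ± 0.08. The 9 probes on the telomere side differed by 0.28 ± 0.20, and the outermost of them were lower with BPS, down to −0.79. A running mean over 5 probes of the difference peaked inside the frame, at 9.08 kb and 0.20 kb from its middle, at 1.68. It stayed above 50% of that height from 8.27 to 13.79 kb, a stretch of 5.52 kb, and above 0 from 6.81 to 20.40 kb, a stretch of 13.6 kb. Upstream of the ARN2 start, in the first 0.5 kb, 2 probes differed by 1.27 ± 0.26.

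The stretch with positive differences ran on from ARN2 and ended inside ARN1. Between the genes 33 of 34 probes were higher with BPS, with a mean difference of 0.75 ± 0.08, so the values of ARN2 and ARN1 are not independent, and 4 probes belong to the 5 kb of both. On the telomere side of ARN1 19 of 20 probes were higher with BPS (0.50 ± 0.08). On its centromere side 9 were higher and 9 lower (−0.08 ± 0.12). The running mean of the difference had its lowest point of this window at 21.04 kb (−0.59), just upstream of the ARN1 start, with levels of −0.998 on the array without BPS and −1.58 on the other. The probes at 21.04 and 21.54 kb had ratios of 0.685 and 0.721 without and 0.315 and 0.327 with BPS, and both were lower by more than 1 log2 unit, as were 2.17% of all probes.

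**Figure D4:**
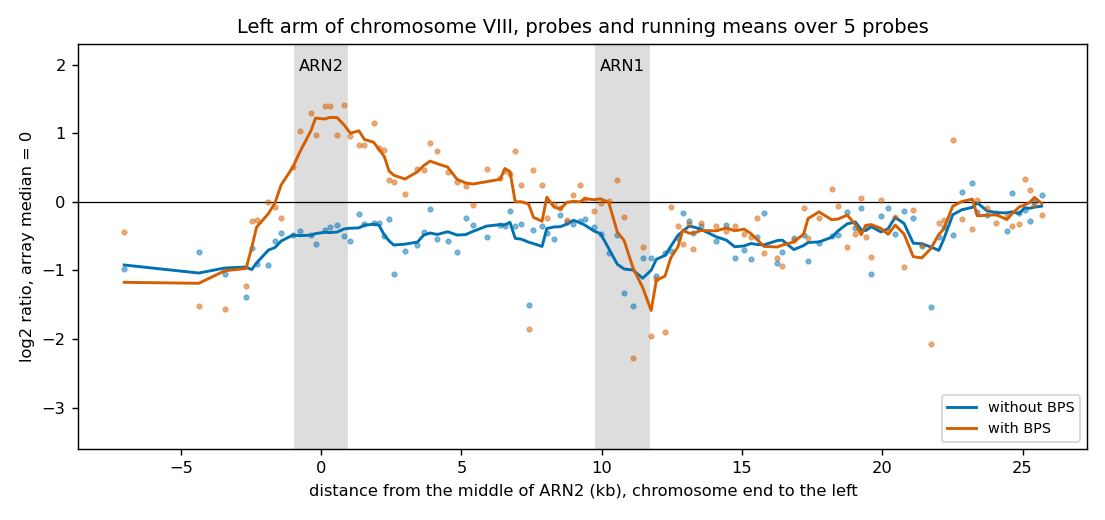
Log2 ratio along the left arm of chromosome VIII against the distance from the middle of ARN2 in kb, with probes as points and running means over 5 probes as lines, without BPS (blue) and with BPS (orange). The line with BPS is the higher around ARN2, crosses the other inside ARN1 and is the lower just beyond it, down to −1.58.

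ENB1 lay on the inner slope of a wide zone. The 18 probes of the 5 kb on its telomere side were all higher with BPS (0.31 ± 0.10 without and 1.12 ± 0.07 with BPS), a difference of 0.80 ± 0.09 and more than in the gene itself. The 8 probes on the centromere side differed by 0.39 ± 0.11. Over the whole window the difference was 0.66 ± 0.07, above that of all 30 other ends taken at the same distance (range −1.19 to 0.63). Its lead over the next, the left end of X (0.63 ± 0.13), was smaller than the SE of either and cannot be read as a difference. The highest running mean of the difference was looked for only inside this window. It was 1.18, at 14.80 kb, near the outer edge of the window and 5.60 kb from the middle of ENB1. The running mean stayed above 0 from 2.60 to 24.68 kb, or 22.1 kb in all.

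Around SIT1 the difference was small and even. It was −0.16 ± 0.09 over 19 probes on the telomere side and −0.21 ± 0.09 over 19 probes on the centromere side, and 36 of the 46 probes of the window were lower with BPS. No probe of the window passed 1 log2 unit in either direction. The lowest was a single probe at 23.39 kb, with ratios of 0.447 without and 0.276 with BPS, between neighbours near the array median.

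**Figure D5:**
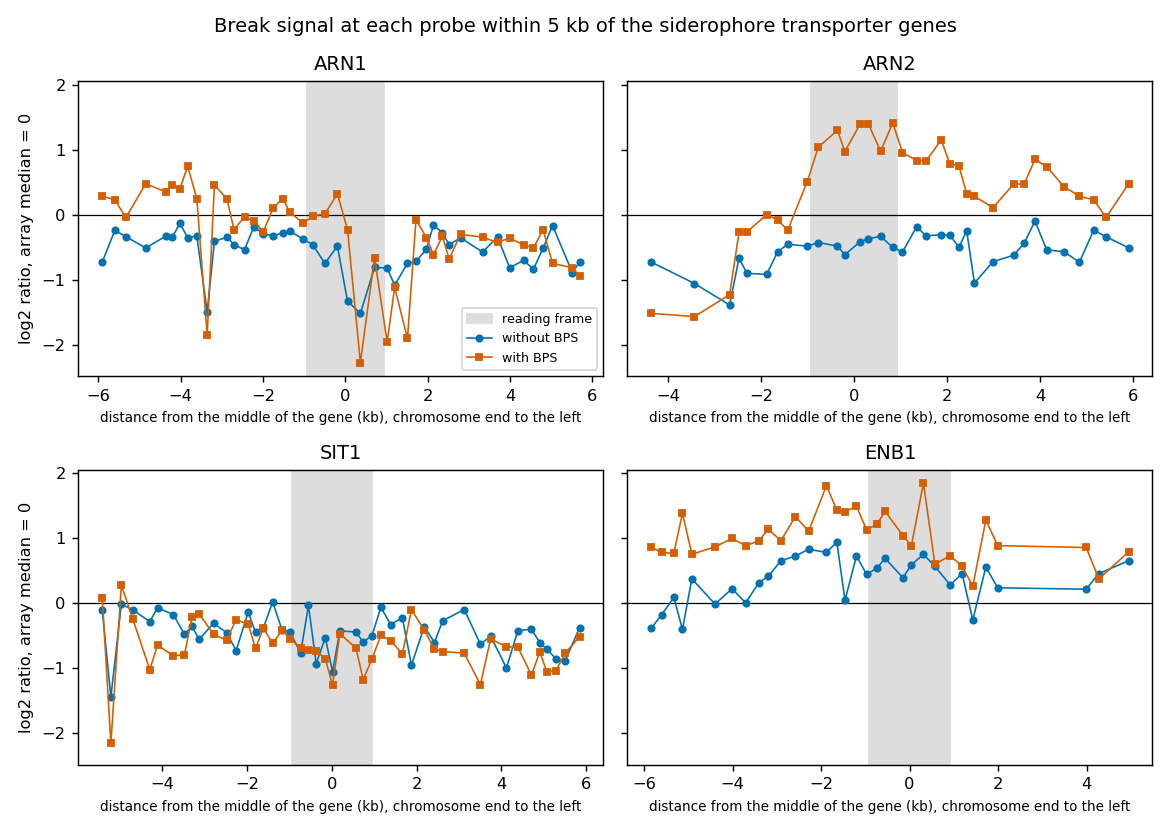
Log2 ratio of every probe within 5 kb of each gene, without BPS (blue circles) and with BPS (orange squares), against the distance from the middle of the gene in kb, with the chromosome end to the left and the reading frame shaded. The value with BPS is the higher at all 7 probes of ARN2 and all 18 on its centromere side and at 31 of the 32 probes around ENB1, and it is the lower at 36 of the 46 around SIT1.

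Every neighbour of ARN2 and of ENB1 that held a probe was higher with BPS, and the neighbours of SIT1 were mixed. At ARN2 5 of 7 genes within 5 kb held a probe, and all 5 were above 0.5, from 0.53 ± 0.16 at COS8 to 1.10 at PXP3 (1 probe). Among all 5788 genes with 1 or more probes 611 were above 0.5. COS8 and PAU13 belong to families of near-identical subtelomeric genes, and a probe there may pick up DNA of several copies. At ENB1 4 of 5 genes held a probe, and their differences ran from 0.14 at the hexose transporter gene HXT11 (1 probe) to 1.25 at YOL160W (2 probes). Of the 7 genes beside ARN1 the highest was DFP4 (1.01, 2 probes), which also lies within 5 kb of ARN2, and the lowest was EFM1 (−0.04 ± 0.11, 6 probes), a methyltransferase gene. Of the 7 beside SIT1 none passed 0.5 in either direction, and they ran from −0.33 ± 0.17 at the arginine permease gene CAN1 (6 probes) to 0.19 at HXT13 (1 probe). Most of these neighbours rested on fewer than 3 probes.

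The broad zones in which the genes lie differed as well. Probes in the outermost 10 kb of the chromosomes, where most of ARN2 lies, had medians of −0.67 without and −0.23 with BPS. Probes at 10 to 30 kb, the zone of the other 3 genes, had 0.18 and 0.38. The medians of whole chromosomes V, VIII and XV lay between −0.09 and 0.06 on both arrays.

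Other genes of iron homeostasis lay on both sides of 0. Of 36 listed genes 28 had 3 or more probes, and their median difference was 0.01. Of these, 3 were higher by over 0.5 log2 units and 1 lower, against 9.61% and 6.77% of all genes. The higher ones were GRX3, a glutaredoxin gene of iron sensing (0.91 ± 0.25, 3 probes), FRE2 (0.80 ± 0.07, 8 probes) and FTH1, a vacuolar iron permease gene (0.70 ± 0.21, 5 probes). The lower one was FRE1, a ferric reductase gene of the plasma membrane (−0.68 ± 0.10, 9 probes). FTR1 and FET3, the permease and oxidase of reductive iron uptake, had 0.32 ± 0.07 and 0.06 ± 0.15. AFT1, which encodes the activator of the transporter genes, had −0.18 ± 0.10.

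By the pair of means over the 2 arrays, the genes nearest to each transporter all lay on chromosomes other than its own. Chromosomes V, VIII and XV hold only 1982, 1934 and 3750 of the 41480 probes, so most candidates for any gene lie elsewhere. Nearest to ARN2 were ATP22 (−0.61 and 1.31, 0.19 away) and GIN4 (−0.50 and 1.01, 0.21 away), both on IV. Nearest to ENB1 were CET1 on XVI and DGR2 on XI, each 0.03 away. AFG2 on XII (0.04 away) and MIX23 on II (0.05 away) were nearest to ARN1, and RCN2 on XV and ALK1 on VII, within 0.01, were nearest to SIT1. With only 2 arrays such likeness describes 2 values per gene and nothing more. The nearest genes were farther from ARN2 than from the other 3.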

How the data were processed

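The authors deposited 1 normalized linear ratio per probe and array. The submitters' processing notes name Agilent Feature Extraction 9.5.1. How the ratio was normalized, which channel is its numerator and which genome build the coordinates follow are not given in the sources used here. Per the labels, Cy5 marked G1 DNA and Cy3 recovery DNA in both hybridisations, so dye bias was not balanced. Signal over background could not be judged from ratios. Groups came from the source names of the Cy3 channel.

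Ratios were converted to log2 with no pseudocount or filter, since none was 0 or negative, and each array was centred on its median (Python 3.11.15, numpy 2.4.6, pandas 2.3.3). Values of a gene are means over the probes in its frame. Gene means and calls were run on simulated data with known shifts and noise drawn separately for each probe. Such data lack scatter shared by neighbouring probes or between cultures, so they do not test the calls for it. Precision is limited by the number of arrays, which is 1 per group. The other ends were placed from the last probe or gene of each chromosome, so distances on right arms are approximate.

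Positions of the R64 table were checked on long Ty frames, which array designs leave without probes: on V, VIII and XV 8 frames held 1 probe in place, on VIII, against 9 when moved 0.5 kb either way. The members and lists were chosen with earlier results of these data known. Named besides them were neighbours and iron genes by the highest and lowest difference or a call, and the 2 genes nearest to each by Euclidean distance. FTR1, FET3, AFT1, single low probes and named ends were chosen after their values were seen. A planned search of promoters for Aft1 motifs was not run, as no sequences were used here. Alternatives were other centring, scaling, windows, positions and probe minimums.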

Additional observations from a re-analysis of the deposited data

How the results depend on the processing

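Of 180 alternative values of the reading frames, windows, end comparisons and gene counts, 166 moved by less than their interval over probes (1.96 SE) or, for counts, by less than 1.5 times. This count does not measure robustness. Leaving out the centring cannot change an excess over the other ends. The interval is wide where probes scatter most, so the ARN1 difference of 0.02 and excess of −0.14 given below count as unmoved. None of the differences past 0.5 log2 units turned its sign. The ARN2 difference ran from 1.37 to 1.77 over its 9 alternatives. It was 1.37 when positions were moved 0.5 kb towards the chromosome end, where its signal with BPS was 0.91 and its excess over the other ends 0.72. Without centring the signals were −0.17 and 1.51 at ARN2, −0.32 and −0.53 at SIT1 and 0.87 at ENB1 without BPS, which is a shift of all probes. The ENB1 difference ran from 0.44 to 0.70 and passed 0.5 under 6 of 9 alternatives. The ARN1 difference was 0.02 when positions were moved 0.5 kb towards the centromere and −0.24 at the position first listed, and passed 0.5 under 3 of 9. Its excess over the other ends fell to −0.14 with positions moved towards the centromere. With windows of 10 kb either side the difference was 0.44 around ARN1 and −0.049 around SIT1. With genes of 1 or more probes 531 of 5788 were lower with BPS, against 294 of the 4340 with 3 or more. At a threshold of 1 log2 unit 91 of these 4340 genes were higher and 9 lower. The cause of these shifts was not tested. The probe found farthest from the median of its frame, the listed positions, the flanks alone and single other ends were left out or tried after seeing the data. No paired analysis was possible because each group had 1 array. Differences smaller than about the SE over probes cannot be read as differences. Larger ones are not thereby shown to exceed variation between cultures, since that SE covers scatter within the arrays only. No value has a replicate between cultures.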
